A study of Oryza sativa with 8 samples.

Results

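The response of wild type rice seedlings to drought was described by setting 2 drought libraries against 2 libraries of normally watered seedlings, which are 4 of the 8 RNA-seq libraries of the series. These 4 libraries were chosen by their genotype and treatment labels (MH63-WT, drought and normal). The drought seedlings had grown for 14 days with ample water and then went without watering for 15 days, ending at a relative soil water content near 5%. The normal seedlings of the same MH63-WT genotype stayed watered throughout and were harvested together with the drought seedlings. Each replicate held at least 30 seedlings, so every library is a pool of whole seedlings. A further 2 wild type libraries, from seedlings rewatered for 4 days after the drought (recovery), entered the statistical fit of 6 libraries and are given beside some results. The remaining 2 libraries came from drought-treated osbzip23 seedlings and were left out, because their rows did not correspond to the wild type rows. Over the first 40897 rows, osbzip23 replicate 1 and wild type drought replicate 1 correlated at r = -0.011 on log2(CPM + 1), where CPM is the usual scaling of a row's counts to an equal total in every library, on which a row at 30624 CPM holds 3.06% of the counts. The wild type drought pair correlated at 0.998 over the same rows, and the osbzip23 pair at 0.988.

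Plants that lose water close their stomata, raise abscisic acid and switch on stress genes through bZIP, NAC and DREB transcription factors. Known products of this programme include late embryogenesis abundant proteins, dehydrins and enzymes that make osmoprotectants, while photosynthesis and growth genes are typically turned down. The deposited table cannot assign the present values to any of these genes. The wild type rows cannot be relied on to carry the right gene ID, so an ID printed here is the label of a row only. For the same reason no gene list was scored, and the seedling label could not be checked against marker genes.

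The wild type libraries were deep and alike in size, with 41691660 and 42894245 counts in drought, against 41401806 and 37400784 under normal watering. The recovery libraries held 38072531 and 39128352 counts. Of 59903 rows, 30074 had a count in a wild type library, and 22898 passed the filter on low counts and were tested. These tested rows held 99.96% to 99.97% of the counts of each library. The table holds no row lengths, so a row with many counts may belong to a long transcript, and rows are ranked here by the counts they hold and not by transcript level. Drought replicate 1 had no count after row 40897. The 19006 later rows held 1496 counts in drought replicate 2, against 22990 and 21014 counts in the normal libraries. Only 265 of them were tested, and 238 of those were called lower in drought and 0 higher. The counts below that these rows touch most are also given without them.

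Drought and normal libraries differed in over 36% of their counts. To measure this directly, the share of counts that lay in different rows was taken for each pair of libraries, as the summed difference in row shares over both directions divided by 2. The 4 pairs of a drought and a normal library differed in 36.5% to 36.8% of their counts. The drought replicates differed from each other in 3.09% of their counts and the normal replicates in 2.40%, so the change was more than 10 times the distance between replicates. A recovery and a normal library differed in 13.4% to 14.0%. Across the tested rows, drought and normal libraries correlated at r = 0.842 to 0.843 on log2(CPM + 1), against 0.996 within either group. In pools of whole seedlings, fewer cells of a type and less RNA per cell cannot be told apart, and CPM values show shares of a library, not amounts per plant.

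Row by row, most of the measured transcriptome differed. In edgeR's quasi-likelihood test, 16641 of 22898 rows were called at a Benjamini-Hochberg adjusted p under 0.05, which is 72.7% of those tested. In drought, 8090 rows rose (35.3%) and 8551 fell (37.3%). The drought and normal values did not overlap in 19693 of the 22898 tested rows (86.0%), called or not. Of the calls, 48.6% were higher, a share that depends on the scaling between libraries (TMM). It was 45.2% with scaling by library size only and 44.5% with upper quartile scaling. Its nearness to even is therefore no result about drought. Rises were a smaller share of the large changes. When the test asked for a change of more than 2-fold, 2796 rows were called higher (12.2%) and 4370 lower (19.1%), so that rises were 39.0% of these calls. In a fit without the rows after the last count of drought replicate 1, 8074 rows rose and 8326 fell, and 2785 rose and 4148 fell by more than 2-fold. More rows fell than rose under each scaling, filter and test that was tried. With 2 libraries a group these p-values measure the spread between the libraries, and the labels do not say which seedling batch a replicate number stands for.

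The fold changes of the tested rows had long tails. Their median was -0.0035 on the log2 scale, the quartiles were -1.01 and 0.72, and the 5th and 95th percentiles were -4.01 and 2.58. A median near 0 is largely set by the scaling between libraries (TMM), so it is no result about drought. It was -0.080 with scaling by library size only and -0.093 with upper quartile scaling. A typical rise was smaller than a typical fall. The median log2 fold change was 0.96 among rows that rose and -1.42 among rows that fell, which is 1.94-fold and 2.68-fold. Of the rises, 52.0% were estimated at under 2-fold, against 37.0% of the falls. Among the 6257 rows that were not called, 2429 had a 95% interval of the fold change lying within 1.5-fold in both directions. For the other 3828 the interval was wider or reached further out, so a change of that size was not excluded in them. A call also did not mean a large change, since 2034 called rows had an interval that stayed within 1.5-fold.

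**Figure D1:**
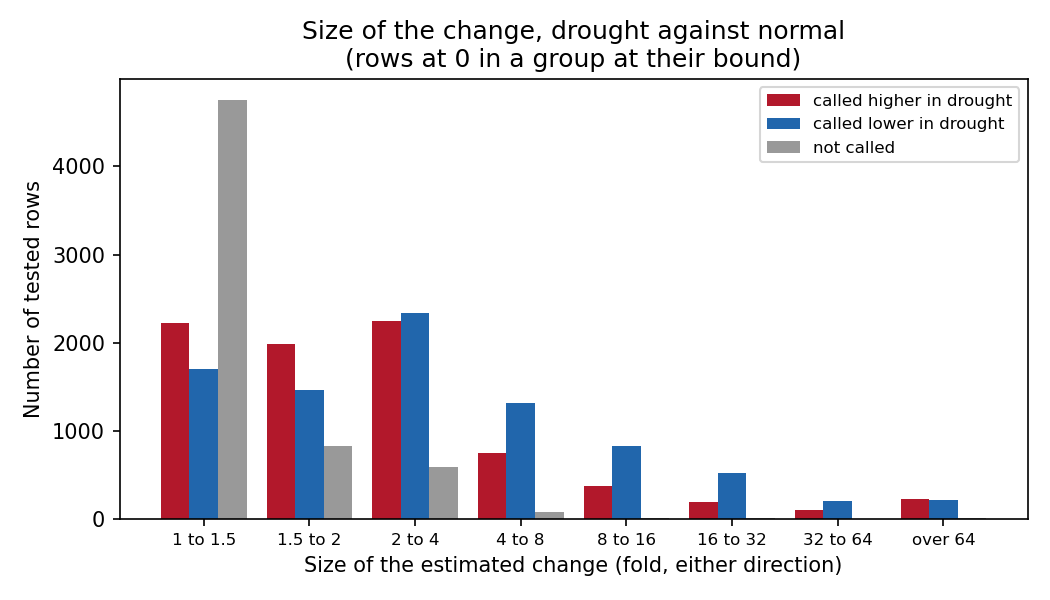
Number of tested rows (vertical axis) by the size of the estimated change between the 2 drought and 2 normal libraries (horizontal axis, fold bands), for rows called higher in drought, called lower in drought and not called. With TMM scaling, rises outnumber falls below 2-fold, at 2225 against 1704 and 1982 against 1458 rows. Falls outnumber rises from 2- to 64-fold, and the last band holds 223 rises and 211 falls.

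With TMM scaling, the direction of the larger group changed with the size of the change. The bands were not counted under another scaling, and the balance of small changes depends most on it. With upper quartile scaling 7375 rows were called higher in all, against 8090 with TMM. Rows called lower were then 9183, against 8551. Below 1.5-fold 2225 rows rose and 1704 fell, and from 1.5- to 2-fold 1982 rose and 1458 fell. From 4- to 8-fold the order was the other way, with 742 rises and 1309 falls. From 8- to 16-fold there were 374 rises and 822 falls, and from 16- to 32-fold 194 rises and 513 falls. Beyond 64-fold the groups were near even, at 223 rises and 211 falls, and beyond 1024-fold there were 42 rises and 9 falls. Without the rows after the last count of drought replicate 1, the falls came to 1266 from 4- to 8-fold, 756 from 8- to 16-fold, 450 from 16- to 32-fold and 181 beyond 64-fold, and the rises were unchanged in number. In these numbers, rows with 0 counts in both libraries of a group stand at a bound, set against 3 counts over the group, since their fitted fold depends on an added constant. This concerned 153 of the called rises and 443 of the called falls. Of those falls, 264 lay in rows up to the last count of drought replicate 1. With the fitted values instead, 323 rows rose and 546 fell by more than 64-fold, and 74 rose and 43 fell by more than 1024-fold.

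The rows that rose held 63.97% ± 0.277 of all counts in drought, against 27.6% ± 0.0068 in normal seedlings (SD, n = 2 each). The rows that fell held 25.3% ± 0.111 in drought, against 61.1% ± 0.0869 in normal seedlings. Both sets were picked on these libraries, so their shares are a description. Among the rising bands the largest changes gained most and the smallest gained least. The 4207 rows that rose by less than 2-fold held 27.8% ± 0.255 of the drought counts, against 20.4% ± 0.0212 of the normal counts. The 2988 rows that rose 2- to 8-fold held 19.1% ± 0.0748, against 6.67% ± 0.00865. The 895 rows that rose by more than 8-fold by the fitted values held 17.0% ± 0.457, against 0.528% ± 0.00581. On the falling side the middle band carried most. The 3556 rows that fell 2- to 8-fold held 8.50% ± 0.0381 in drought, against 29.1% ± 0.111 in normal. The 1833 rows that fell by more than 8-fold held 0.403% ± 0.0065 in drought, against 7.20% ± 0.0742 in normal. The 6257 rows without a call held 10.7% ± 0.166 in drought, against 11.3% ± 0.0783 in normal.

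The change depended on how many counts a row held. Rows were put in 6 classes by their mean log2 CPM over the 4 libraries. Called rows were 51.8% of the 4683 rows under 0, 76.5% of the 4887 rows from 2 to 4, 86.2% of the 2990 rows from 6 to 8, and 92.5% of the 469 rows at 8 and above. Precision rose along the same axis. The median standard error of the log2 fold change was 0.66 in the lowest class and 0.045 in the highest. The size of the change did not follow that order. The median absolute log2 fold change was 1.70 under 0, 1.09 from 0 to 2 and 0.81 from 2 to 4. Under 0 it was 1.57 without the rows after the last count of drought replicate 1. The large standard error in that class can also raise absolute values. The median was lowest in the middle of the range, at 0.58 in both classes from 4 to 8, and was 0.87 at 8 and above.

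Replicates were much closer to each other than drought was to normal in every class. In the lowest class, drought and normal libraries differed by a median of 1.55 in log2 CPM, averaged over the 4 pairs. The drought replicates differed there by 0.48 and the normal replicates by 0.44. From 4 to 6 the same medians were 0.58 between conditions, 0.090 between drought replicates and 0.077 between normal replicates. At 8 and above they were 0.88, 0.059 and 0.039. The rows with most counts changed about as much as those from 2 to 4, with a far smaller replicate spread.

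**Figure D2:**
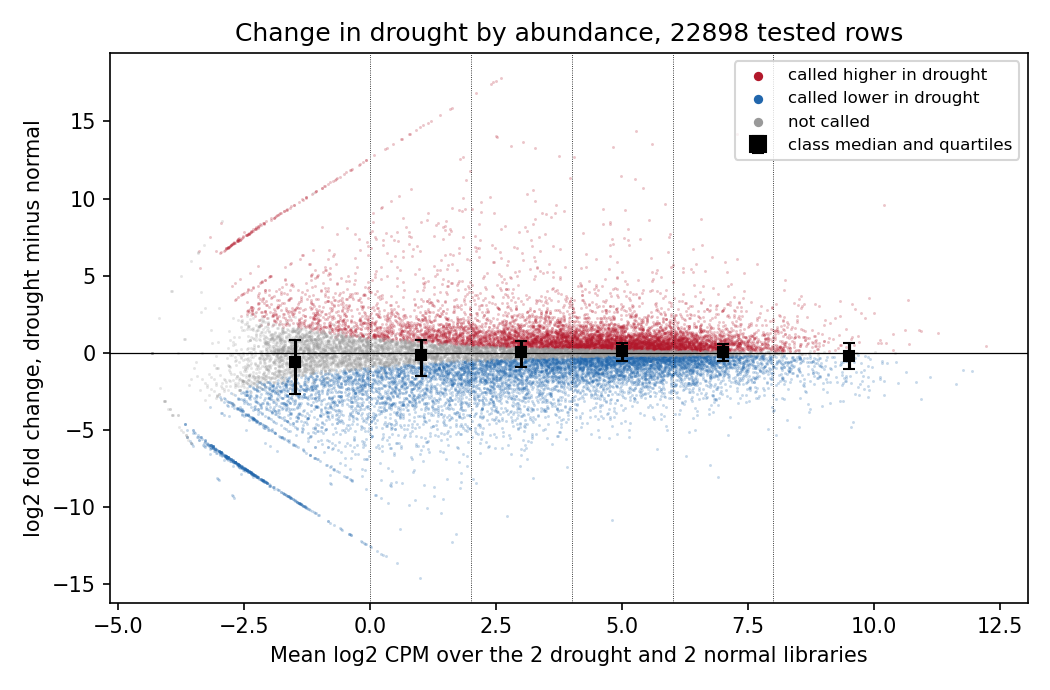
Log2 fold change, drought minus normal (vertical axis), against mean log2 CPM over the 2 drought and 2 normal libraries (horizontal axis), with 1 point per tested row coloured by its call; squares and bars give the median and quartiles of each of the 6 abundance classes, placed near the middle of the class. The quartiles are widest under 0 and narrowest from 4 to 8, and the outermost slanted lines of points at the left are rows with 0 counts in both libraries of a group.

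Direction also changed with abundance. With classes by the mean of the 4 libraries, falls outnumbered rises at both ends of the range and rises outnumbered falls in the middle. Under 0, 752 rows rose and 1672 fell, so rises were 31.0% of the calls (95% Wilson interval 29.2 to 32.9, counting error only). Without the rows after the last count of drought replicate 1, the falls in this class numbered 1439 and rises were 34.3% of its calls. From 4 to 6, 2835 rose and 2168 fell, or 56.7% of the calls (55.3 to 58.0). At 8 and above, 194 rose and 240 fell, or 44.7% (40.1 to 49.4). Among changes called as larger than 2-fold, falls took 27.1% of the rows under 0 and rises 9.99%. Without the rows after the last count of drought replicate 1, these were 23.8% and 10.6%. From 4 to 6 the shares were 11.9% for rises and 12.1% for falls. At 8 and above they were 16.2% for rises and 24.7% for falls.

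The picture at the ends, and from 6 to 8, depended on which libraries set the classes. So did the balance of changes called as larger than 2-fold from 4 to 6. Classes set by the drought libraries alone gave 413 rises and 140 falls among the 585 rows at 8 and above, and 344 rises and 2480 falls under 0. Classes set by the normal libraries alone gave 109 rises and 451 falls among 599 rows at 8 and above, and 1230 rises and 830 falls under 0. By construction, classes set by 1 side of the comparison favour rows that are high on that side at 8 and above. Under 0 they favour rows that are low on that side. The recovery libraries enter neither mean, but they lie far closer to normal than to drought. A drought and a recovery library differed in 42.2% to 42.5% of their counts, against the 13.4% to 14.0% between recovery and normal. Classes set by recovery gave 77 rises and 447 falls among 551 rows at 8 and above, and 1237 rises and 906 falls among 4464 rows under 0. In these classes the median log2 fold change was -1.14 at 8 and above and 0.25 under 0. From 6 to 8, rises were 53.0% of the calls with classes by the mean of the 4 libraries. They were 67.0% with classes by drought, 38.8% by normal and 33.8% by recovery. From 4 to 6 the same shares were 56.7%, 60.2%, 52.0% and 50.8%. Among changes called as larger than 2-fold from 4 to 6, rises took 13.6% of the rows and falls 9.40% with classes by drought. They took 9.27% and 16.3% with classes by normal, and 8.86% and 16.5% with classes by recovery.

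**Figure D3:**
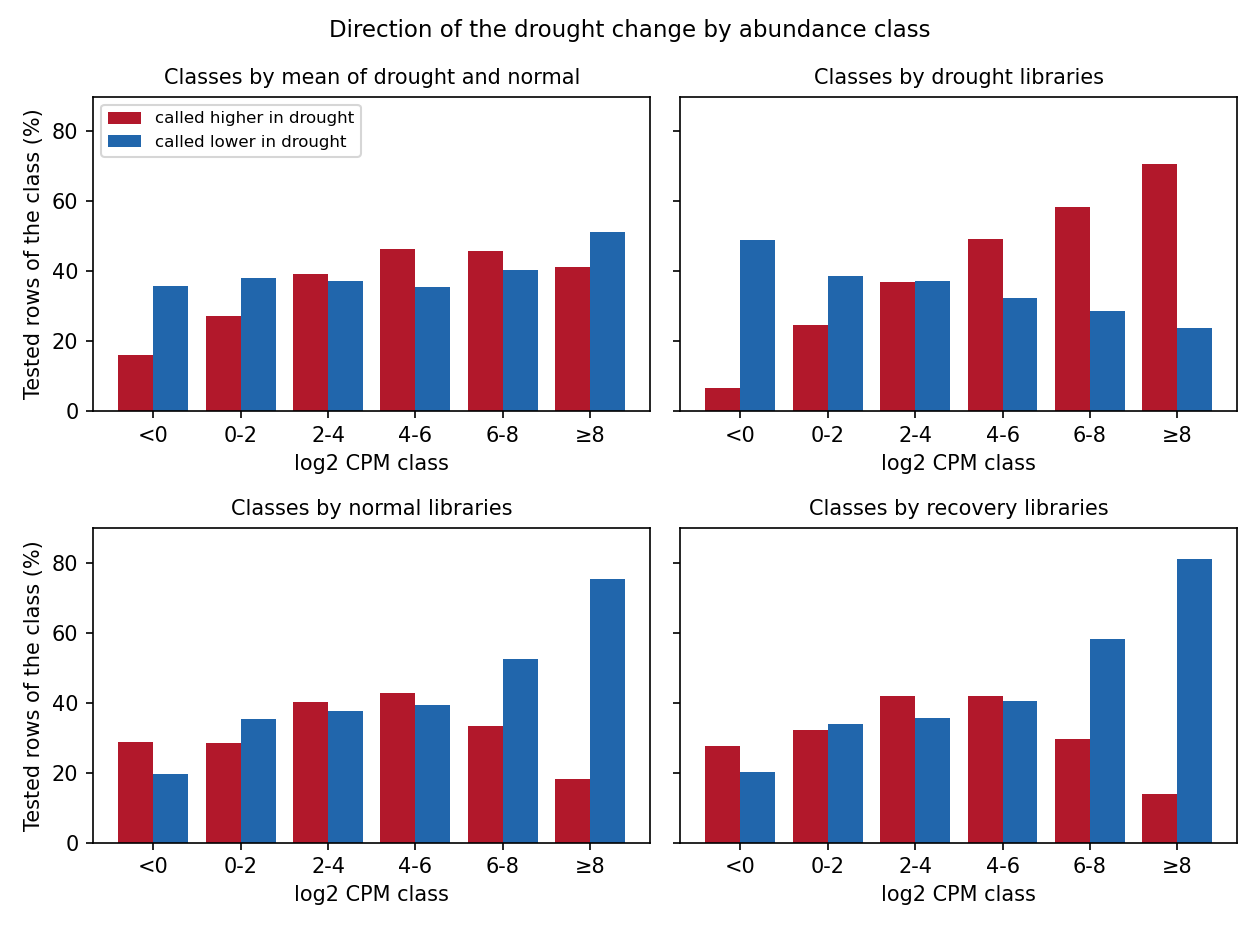
Percentage of tested rows called higher or lower in drought (vertical axes) in 6 classes of log2 CPM (horizontal axes), with the classes set by the mean of the drought and normal libraries, by the drought libraries, by the normal libraries or by the recovery libraries. At 8 and above, rises reach 70.6% with classes set by drought, while falls reach 75.3% with classes set by normal and 81.1% with classes set by recovery.

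Counts were more concentrated in a few rows in drought. The top row held 3.06% and 3.20% of the counts in the drought libraries, against 0.664% and 0.656% in the normal libraries. The top 10 rows held 8.48% and 8.75% in drought, against 4.61% and 4.56% under normal watering. This difference shrank further down the list. The top 100 rows held 19.3% and 19.8%, against 17.3% and 17.0%, and the top 1000 held 46.9% and 47.5%, against 46.4% and 46.1%. It took 1185 and 1154 rows to reach 50% of the counts in drought, and 1221 and 1234 rows under normal watering. The effective number of rows, the exponential of the Shannon entropy of the row shares, was 5005 and 4888 in drought and 5784 and 5837 in normal. The drought and normal values did not overlap in any of these measures, but 2 libraries against 2 cannot go below an exact two-sided permutation p of 0.333. The recovery libraries had an effective number of 4593 and 4645 rows, below both drought libraries, so a concentrated library was not particular to drought.

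**Figure D4:**
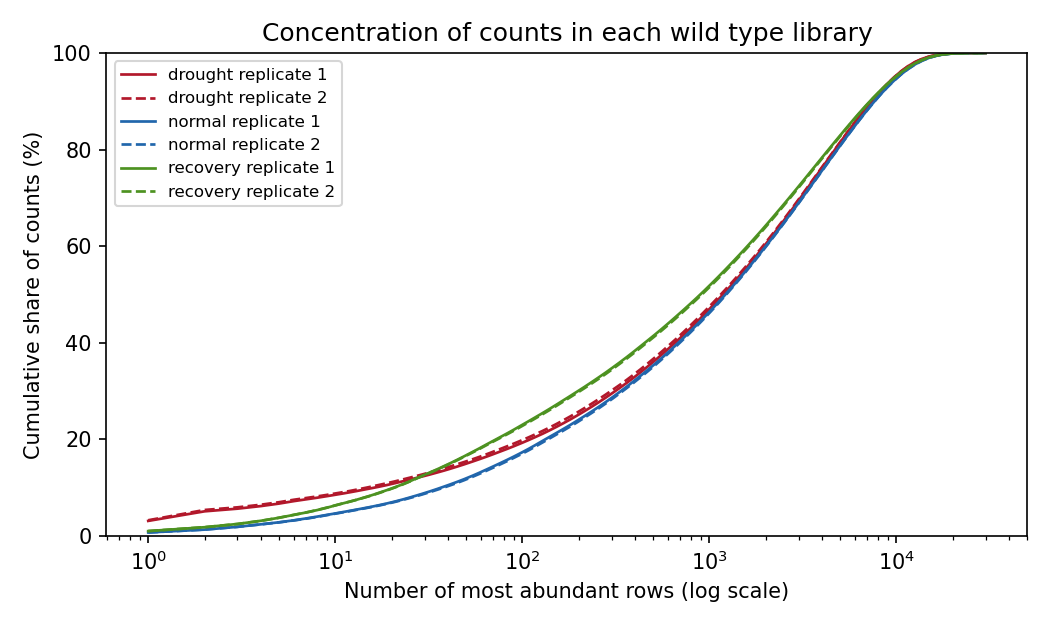
Cumulative share of counts (vertical axis, percent) held by the most abundant rows (horizontal axis, number of rows, log scale) in each of the 6 wild type libraries. The drought lines start highest, at 3.06% and 3.20% for the first row, and approach the normal lines by 1000 rows, where the shares are 46.9% and 47.5% in drought and 46.4% and 46.1% in normal.

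The head of the list was largely replaced. Of the 100 rows with most counts, 27 were shared by the drought and normal means. The drought replicates shared 96 of their top 100 rows and the normal replicates 99. Of the top 10 rows, 1 was shared, which stood 3rd in drought and 5th under normal watering, at 5458 and 4129 CPM. The other rows of the drought top 10 came from very different places. Their normal means ran from 0.251 to 1606 CPM, and 3 of them held under 2 CPM in normal seedlings. By contrast, the rows of the normal top 10 that fell still held 136.6 to 2531 CPM in drought. In all, the drought top 100 held 19.5% ± 0.385 of the drought counts, against 7.25% ± 0.0792 of the normal counts. The normal top 100 held 7.07% ± 0.0520 of the drought counts, against 17.1% ± 0.2004 of the normal counts (SD, n = 2 each). Of the drought top 100, 81 rows were called higher and 14 lower. Of the normal top 100, 87 were called lower and 11 higher. These lists were ranked on the libraries compared, so the counts describe them and test nothing.

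Fewer rows were detected in drought. With at least 10 counts, 21137 and 21151 rows were seen in the drought libraries, against 21887 and 21754 in the normal libraries. At a common depth of 37400784 counts these were 20904 and 20880 rows in drought and 21682 and 21754 in normal. Without the rows after the last count of drought replicate 1, the counts at full depth were 21137 and 21132 in drought and 21632 and 21505 in normal, so those rows made up a sizeable part of the difference. Some rows were read in a single condition. A set of 154 rows had at least 10 counts in both drought libraries and 0 in both normal libraries, and 330 rows showed the reverse. Of these 330 rows, 132 lay after the last row with a count in drought replicate 1, and 198 before it, while all 154 drought-only rows lay before it. A count of 0 over both libraries allows up to 0.0355 CPM in drought and 0.0381 CPM in normal (3 counts over the group, counting error only). The drought-only rows were few but some held many counts. Together they took 0.450% of the drought counts, and the highest had 724.8 CPM. The rows at 0 in drought took 0.0797% of the normal counts, and the highest had 79.5 CPM. After rewatering, 242 of the 330 rows and 5 of the 154 drought-only rows had 10 counts or more in both libraries. The 242 and the 0.0797% were taken over all 330 rows, including the 132 after the last count of drought replicate 1.

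At most 2 rising and 2 falling rows are printed, chosen for the largest fold and the largest CPM difference, from calls whose mean log2 CPM reached 3. The largest rise in fold was the row labelled OsMH_08G0328400. It held 5083 and 5103 CPM in the drought libraries, against 0.314 and 0.187 CPM, or 13 and 7 counts, in the normal libraries. Drought was thus about 4 orders of magnitude higher in both libraries, and the groups were far apart. The ratio of summed counts, each scaled by its group's library totals, was 20069 (95% counting interval 12994 to 32855). On the log2 scale the fitted change was 14.35 (edgeR, adjusted p = 1.23e-16). The fitted change was 14.78 without normal replicate 1 and 14.03 without normal replicate 2. In recovery the row was at 1.29 and 0.946 CPM, above normal by far less than in drought.

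The row labelled OsMH_06G0339400 had the largest rise in CPM and was the most counted row of both drought libraries. It held 30624 and 31988 CPM in drought, against 44.4 and 43.05 CPM under normal watering, where it ranked 5231st. Of every 100 counts in drought about 3 belonged to this row. Its log2 fold change was 9.56 ± 0.064 (SE, edgeR adjusted p = 1.23e-16). In recovery it was at 51.6 and 46.9 CPM.

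Among the falls, the row labelled OsMH_07G0101700 had the largest fold. It held 0.528 and 0.699 CPM in drought, against 1134 and 1187 CPM in normal seedlings, where it ranked 68th. Those drought values rest on 22 and 30 counts. Scaled by library totals, its summed counts in drought were 0.000530 of those in normal seedlings. The counting interval, taken as for the largest rise in fold, was 0.000396 to 0.000696. On the log2 scale the fitted change was -10.80 (edgeR, adjusted p = 2.53e-16). It was -10.62 without drought replicate 1 and -11.03 without drought replicate 2. In recovery the row was at 260.3 and 267.9 CPM, between drought and normal.

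The row labelled OsMH_07G0270900 lost the most CPM. It was the most counted row of the normal seedlings and ranked 28th in drought, with 1575 and 1471 CPM in drought, against 6636 and 6559 CPM in normal. Its log2 fold change was -2.04 ± 0.037 (SE, edgeR adjusted p = 1.17e-13). The 4 libraries were clearly separated, although the row stayed among the 100 most counted in drought. In recovery it was at 8025 and 8034 CPM, above normal. Of the 2 falling rows, the first was nearly silent in drought and the second was 4.33-fold lower than in normal seedlings by mean CPM.

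**Figure D5:**
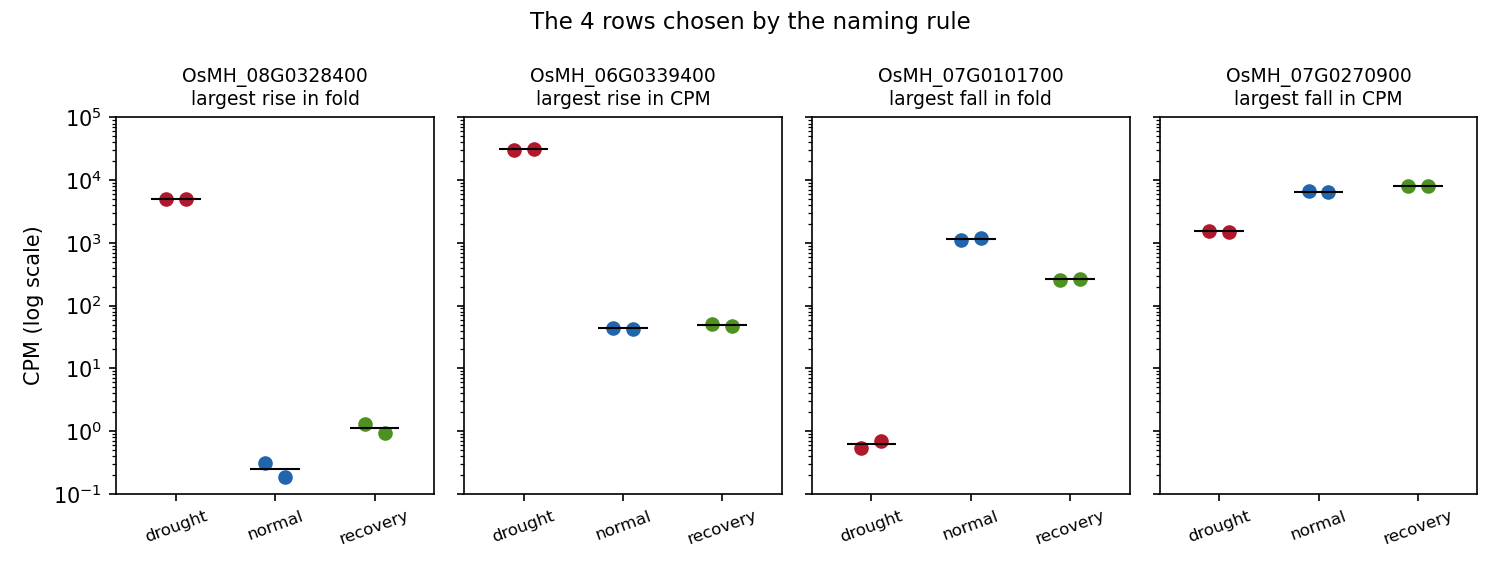
CPM of the 4 rows chosen by the naming rule (vertical axis, log scale) in the drought, normal and recovery libraries, with 1 point per library and a line at the mean of 2. Drought values lie above both normal values in the first 2 rows (5083 and 5103 against 0.314 and 0.187 CPM in the first) and below them in the last 2.

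The recovery libraries show where the drought-changed rows stood after rewatering. They share no library with drought or normal, but the size classes below were set on those. The series holds no continuously watered library taken after those 4 days. In a comparison of recovery with normal, rewatering and seedling age therefore cannot be told apart. Rows that had risen by more than 8-fold had a median log2 CPM of 3.77 in drought, -1.85 in normal and -1.19 in recovery. Rows that had fallen by more than 8-fold had medians of -2.68 in drought, 1.82 in normal and 1.81 in recovery. Rows without a call had 1.24, 1.29 and 1.14. In recovery, the more than 8-fold risen rows held 0.623% ± 0.00308 of the counts, and the more than 8-fold fallen rows 10.7% ± 0.0799, above the 7.20% ± 0.0742 they held in normal (SD, n = 2 each).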

How the data were processed

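The table deposited by the authors holds whole-number counts per row, 1 column per library, whose totals differ between libraries as those of unnormalized counts do. StringTie 2.1.7, STAR 2.7.10a and fastp 0.23.0 are listed, with no role given, per the submitters' processing notes. The build, annotation, strand setting and treatment of multi-mapped reads are not given in the sources used here, so rows of paralogous or overlapping genes are uncertain. RNA came from pooled seedlings (column kit, TruSeq libraries, per the labels).

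The 6 wild type libraries were fitted with edgeR 4.0.16 in R 4.3.3 (TMM, filterByExpr, quasi-likelihood F-test and glmTreat at 2-fold, two-sided, 3 residual degrees of freedom), with p-values adjusted over 22898 rows. The standard error (SE) of a log2 fold change is its absolute value divided by the square root of F. This is an approximation that can be too narrow where 1 group has few counts. CPM uses deposited library totals without TMM, and log2 CPM adds a prior count of 2. Bounds use 3 counts over a group. Descriptions used Python 3.11.15, NumPy 2.4.6, pandas 2.3.3 and SciPy 1.17.1. The fit was also run on simulated data in which few rows changed, as many up as down. That run did not test changes as widespread as these. Alternatives included limma-voom (limma 3.58.1) and DESeq2 1.42.0. The rows printed were, in each direction, the called row with non-overlapping groups and a mean log2 CPM of at least 3 with the largest fold change, and the one with the largest CPM difference. This rule, the comparison and the classes were chosen with earlier results of these data known. Row names matched no gene name, so no sequence is shown.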

Additional observations from a re-analysis of the deposited data

How the results depend on the processing

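The counts of called rows stayed within 1.5 times their value, with more falls than rises, under all 10 planned kinds of alternative and in the rows up to the last count of drought replicate 1, an alternative chosen after seeing the data. Leaving out 1 of the 6 libraries at a time gave 15249 to 16534 calls. The lowest counts were 15249 and 15318, without normal replicate 1 or 2, and a lone library is then assumed to vary like the other groups. Upper quartile scaling shifted the median log2 fold change by -0.090 and gave 44.5% higher among the calls, against 48.6% with TMM. DESeq2 called 15673 rows. The replicate number as a block gave 16283 calls and ended none of the 4 printed calls, and deviations of same-numbered libraries correlated at -0.051 to -0.0013 across rows, so the numbers were not taken as pairs.

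The share of rises among the calls at the ends of the range moved when other libraries set the classes. By construction, classes by drought or normal favour rows high in those libraries at the upper end and rows low in them at the lower end. The recovery libraries are not part of the comparison but lie far closer to normal. Under 0 log2 CPM the share of rises was 31.0%, and 12.2% with classes by drought, 59.7% by normal and 57.7% by recovery. Without the rows after the last count of drought replicate 1 it was 34.3%. At 8 and above it was 44.7%, and 74.7%, 19.5% and 14.7%. From 6 to 8 it was 53.0%, and 67.0%, 38.8% and 33.8%. The count of rows at 0 in drought with at least 10 counts in normal was 330, and 198 without those rows. The mean number of rows with at least 10 counts in normal was 21820.5, and 21568.5 without them. The median standard error was 0.66 in the lowest class and 0.045 in the highest, so small changes are harder to detect in rows with few counts.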

Other observations

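Neighbouring rows of the table more often changed in the same direction than distant ones. Among tested rows up to row 40897, 3403 pairs stood 1 row apart and had both members over 2-fold, and 61.7% of these pairs had the same sign. At 2 rows apart the share was 55.9% of 3044 pairs, at 10 rows apart 52.1% of 2733 pairs, and at 200 rows apart 49.4% of 2290 pairs. The log2 fold changes of rows 1 apart correlated at r = 0.13 over 17131 pairs, a weak relation across rows, which are not independent. Overlapping genes or shared reads could not be examined without coordinates, and their part in this was not tested.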
